A study of Mus musculus with 4 samples.

Results

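The SR splicing factors and the hnRNP genes were examined in RNA-sequencing data of TKPTS cells, a mouse proximal tubule epithelial line that the sample labels call TKPT. The members were taken by their symbols, as every gene named Srsf with a number or Hnrnp with a letter, which gave 31 genes of the 22063 listed: 11 SR genes and 20 hnRNP genes. All cells were kept for 24 h at 1% oxygen and 5% CO2 and then for 12 h at normal oxygen, so both groups had been through hypoxia and reoxygenation and no normoxic library was analysed here. The Scrambled group, given a control siRNA and labelled WT, held 2 libraries (replicates 2 and 3), and the Itgb6-siRNA group, labelled Itgb6 knockdown, held 2 libraries (replicates 1 and 3). The line is a single cell line in culture, and nothing in the labels says that the replicates came from separate cultures, so p-values measure the spread between these libraries, which may be technical. The question put to the data was whether these splicing factors differ between the libraries labelled Itgb6-siRNA and Scrambled, and how the levels of the families compare.

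SR proteins carry RNA recognition motifs and a tail rich in arginine and serine. They bind exons and recruit the spliceosome to nearby splice sites, and kinases of the Clk and Srpk families phosphorylate their tails. The hnRNP proteins coat nascent transcripts and often oppose the SR proteins by blocking splice sites or exons, and many of them also act in mRNA export, stability and translation. Members of both families commonly limit their own level by splicing their transcripts into forms that are degraded by nonsense-mediated decay.

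The totals were 15435087 to 17220285 estimated counts per library, and 11727 genes passed edgeR's filter on low counts, including all 31 members. Replicates of each group differed by more than counting noise, with a chi-square per gene of 3.15 between the Scrambled libraries and 4.0 between the Itgb6-siRNA libraries. Itgb6, the siRNA's target, had 285 and 284 counts in the Scrambled libraries and 279 and 260 counts in the libraries labelled Itgb6-siRNA. Its log2 fold change was -0.0051, with a 95% interval from -0.27 to 0.26 and an adjusted p of 0.991 in edgeR's quasi-likelihood test, so the target did not check the label, and every direction given for the libraries labelled Itgb6-siRNA rests on the label alone. All 6 markers of epithelium were tested and summed to between 2811 and 2969 FPKM (a fragment count scaled to transcript length and library depth) per library, and all 6 had log2 fold changes below 0, with a median of -0.15. Of 16 proximal tubule markers, 12 averaged under 1 FPKM, among them the transporters Slc34a1, Slc5a2, Slc5a12, Slc22a6 and Slc22a8, which were listed at 0 in every library, whereas Pax8, Cdh16 and Aqp1 were among those detected. Aqp1 rose (log2 fold change 0.59, adjusted p 0.000617 by edgeR) and Krt8, an epithelial keratin, fell (log2 fold change -0.20, adjusted p 0.00881), and the part of such differences in the results was not tested. Markers of fibroblasts summed to at most 1.40 FPKM, those of endothelium to at most 2.07 FPKM, and those of macrophages to between 91.4 and 106 FPKM, with 4 of those 7 under 1 FPKM.

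The hnRNP genes stood well above the SR genes in per-length level (FPKM, as deposited). The median over hnRNP genes was 139 FPKM, that over SR genes 42.0 FPKM and that over all genes tested 9.07 FPKM. All 20 hnRNP genes and 10 of the 11 SR genes lay above the median of the genes tested, and 11 hnRNP genes but 1 SR gene (Srsf11) lay in the top 10% of the genes tested. Summed FPKM of the hnRNP genes was 9.44 and 9.40 times that of the SR genes in Scrambled replicates 2 and 3, and 9.30 and 10.8 times in Itgb6-siRNA replicates 1 and 3. The groups overlap in this ratio, and its rise in Itgb6-siRNA replicate 3 came with the highest hnRNP sum (4950 FPKM, against 4444 to 4558 FPKM in the other libraries) and the lowest SR sum (457 FPKM, against 473 to 490 FPKM). By the family medians the ratio was 3.33.

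**Figure D1:**
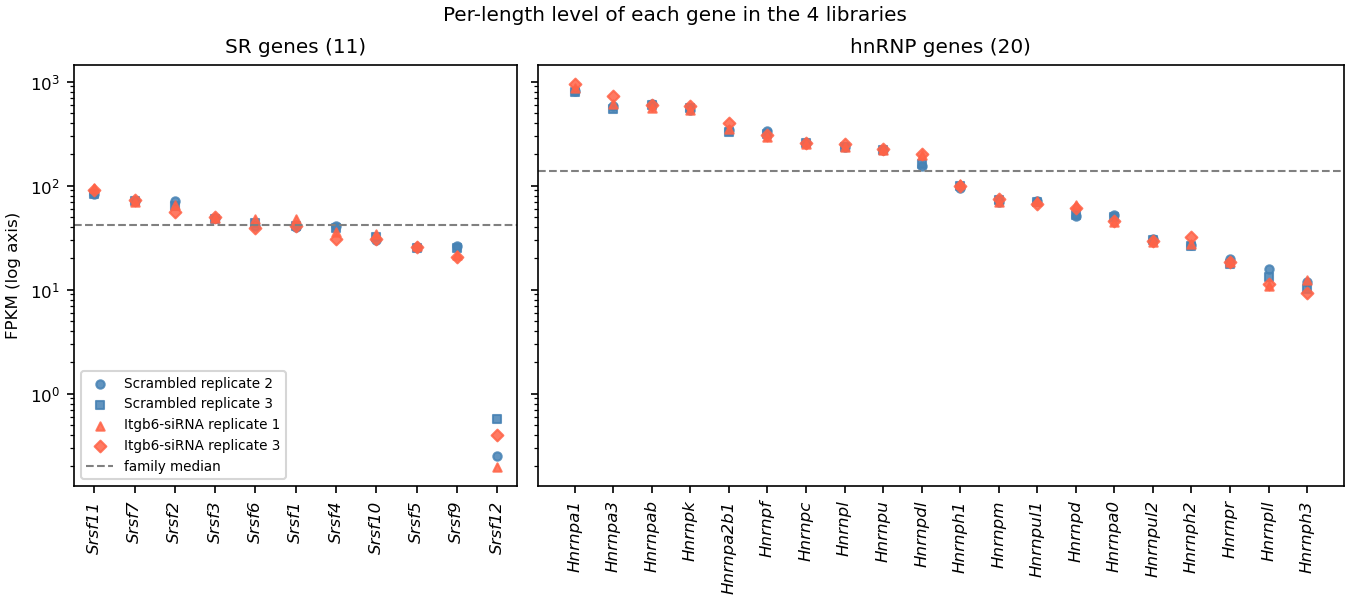
Deposited FPKM (log axis) of each SR gene (left) and hnRNP gene (right), sorted by mean level; blue marks are the 2 Scrambled libraries, red marks the 2 libraries labelled Itgb6-siRNA, and dashed lines the family medians. The hnRNP genes run from about 10.9 FPKM (Hnrnph3) to 853 FPKM (Hnrnpa1), and the SR genes, apart from Srsf12, from 23.4 FPKM (Srsf9) to 88.4 FPKM (Srsf11).

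Within the hnRNP family, Hnrnpa1, which binds exonic and intronic silencers and opposes Srsf1, was the most abundant, at 807 and 797 FPKM in Scrambled and 865 and 942 FPKM in Itgb6-siRNA. Hnrnpa3, its close relative, followed at 581 and 550 FPKM and then 607 and 730 FPKM. Hnrnpab, of the AU-rich binding subgroup, had 610 and 590 FPKM in Scrambled and 557 and 597 FPKM in Itgb6-siRNA. The 3 highest hnRNP genes of each library made up between 43.7% and 45.8% of the family's summed FPKM, and the 3 highest SR genes between 46.3% and 48.1% of theirs. Among the SR genes, Srsf11 had 83.8 and 83.9 FPKM in Scrambled and 94.6 and 91.4 FPKM in Itgb6-siRNA, a difference in the same direction in both libraries. Srsf7, which binds RNA through a zinc knuckle besides its recognition motif, had 71.2 and 71.2 FPKM and then 69.0 and 73.0 FPKM, and Srsf2, an activator of many exons, had 71.1 and 64.0 FPKM and then 64.5 and 55.7 FPKM. Srsf12, a relative of Srsf10, was close to silent, with 9 to 13 counts and 0.198 to 0.567 FPKM per library, so that its fold change (log2 -0.18, 95% interval from -1.39 to 1.03) says little.

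Few SR genes passed the study's thresholds or the adjusted test by edgeR, and those that did were lower in Itgb6-siRNA. At an unadjusted p alone, most SR genes that passed were lower, and the count of higher genes was near the background. At the thresholds of the study's methods (unadjusted p under 0.05 and fold change over 1.2), 2 of 11 SR genes were lower in Itgb6-siRNA and 0 were higher, against 5.2% of all genes tested lower and 4.37% higher. By DESeq2, 0 were lower and 0 higher at these thresholds, against 383 lower and 320 higher of all 11727 genes tested. At an adjusted p under 0.05 (Benjamini-Hochberg over all 11727 genes) 1 SR gene, Srsf4, fell, against 2.52% of all genes lower and 4.62% changed in either direction. At an unadjusted p under 0.05 alone, 3 SR genes were lower and 1 was higher, against 9.62% of all genes tested lower and 8.8% higher. The median log2 fold change of the SR genes was 0.059, beside 0.00017 for all genes tested, with 7 values above 0 and 4 below.

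Srsf4 (chromosome 4, 131873617 to 131901706, plus strand; GRCm38, GENCODE vM21), a large SR protein with a long arginine-serine tail, had 87.6 and 83.0 CPM (counts scaled to library size by TMM) in Scrambled and 75.3 and 66.8 CPM in Itgb6-siRNA. Both Itgb6-siRNA libraries lay below both Scrambled libraries, and replicate 3 was the lowest. The means were 85.3 ± 3.29 CPM and 71.1 ± 6.02 CPM (SD, n = 2 each), the log2 fold change was -0.26 (SE 0.08) and the adjusted p was 0.0407 in edgeR's quasi-likelihood test. Its fold of 1.2006 lay just past the threshold of 1.2. Of its transcript's 100-base windows, 44.9% also occur in Gm12992, a noncoding gene on the opposite strand that was not listed in the table, and reads made without strand cannot be divided between such a pair.

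Srsf9 (chromosome 5, 115327177 to 115333080, plus strand), a shorter relative of Srsf1, had 30.4 and 29.1 CPM in Scrambled and 25.2 and 24.1 CPM in Itgb6-siRNA. The groups were apart, with means of 29.7 ± 0.954 CPM and 24.6 ± 0.809 CPM (SD, n = 2 each). The log2 fold change was -0.27 (SE 0.11) with an unadjusted p of 0.0173 and an adjusted p of 0.154 by edgeR, so it passed the study's thresholds and not the adjusted one. Srsf1, a founding SR protein that promotes exon inclusion, had 103 and 101 CPM and then 116 and 105 CPM, and its log2 fold change of 0.12 had an interval from -0.021 to 0.26. The FPKM ratio of Srsf1 to Srsf9 was thereby 1.51 and 1.62 in Scrambled and 2.18 and 1.99 in Itgb6-siRNA, without overlap.

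Srsf2 had 108 and 100 CPM in Scrambled and 97.2 and 85.7 CPM in Itgb6-siRNA, with a log2 fold change of -0.19 and an adjusted p of 0.144; without Itgb6-siRNA replicate 3 it was -0.096 and without Itgb6-siRNA replicate 1 it was -0.28 (adjusted p 0.0156, range 0.0156 to 0.713 over the alternatives). Srsf11, at the other end, had 212 and 217 CPM and then 239 and 241 CPM, a log2 fold change of 0.16 with an adjusted p of 0.0793, so the largest positive value of the family did not pass by edgeR's adjusted test. The remaining SR genes stayed nearer to 0. Srsf3, the smallest SR protein, which also serves mRNA export, had a log2 fold change of 0.11 and Srsf10, a splicing repressor when dephosphorylated, one of 0.072. Srsf5, Srsf6 and Srsf7 had 0.059, 0.063 and 0.0055. The ratio of Srsf4 to Srsf6, a paralog with the same domains, was 1.01 and 0.89 in Scrambled and 0.74 and 0.79 in Itgb6-siRNA.

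**Figure D2:**
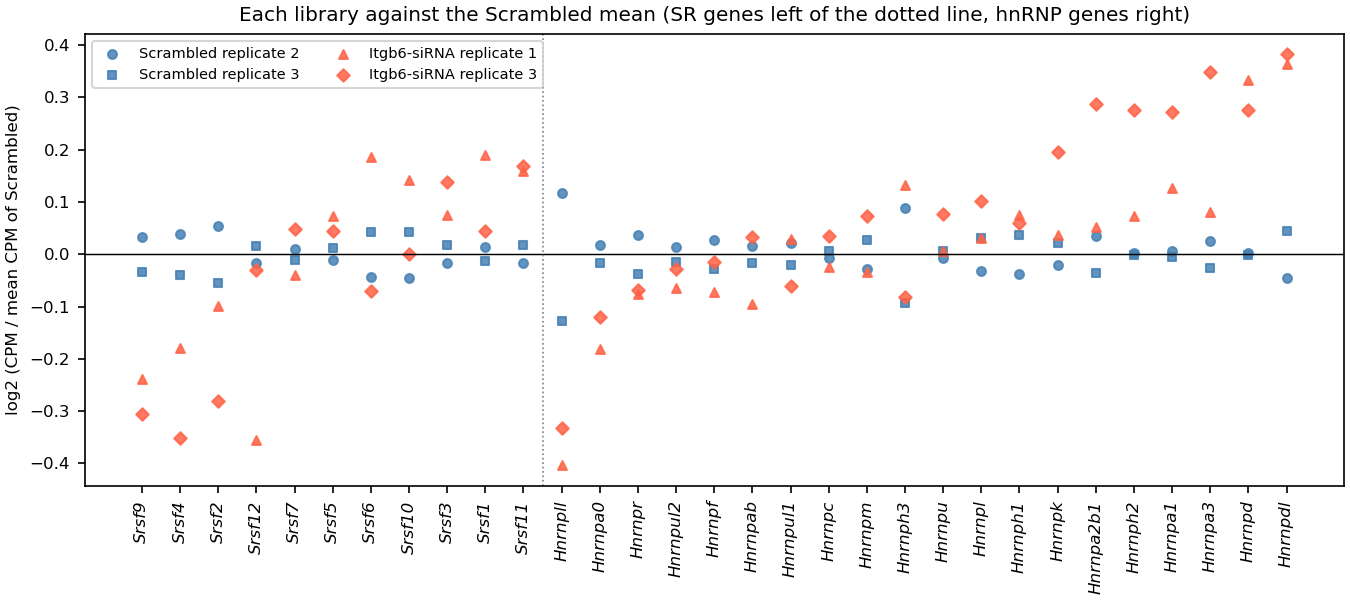
The log2 ratio of each library's CPM to the mean CPM of the Scrambled libraries, for the SR genes (left of the dotted line) and the hnRNP genes (right), each sorted by fold change; blue marks are Scrambled and red marks Itgb6-siRNA libraries. Both red marks lie below the blue ones for Srsf9, Srsf4, Srsf2 and Hnrnpll and above them for Srsf11, Hnrnpa1, Hnrnpa3, Hnrnpd and Hnrnpdl, and for Hnrnpa3 the 2 red marks stand apart from each other.

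The hnRNP genes that passed edgeR's adjusted test were mostly higher in Itgb6-siRNA, and 1 was lower. At an adjusted p under 0.05, 4 of 20 hnRNP genes rose (Hnrnpa1, Hnrnpa3, Hnrnpd and Hnrnpdl) and 1 fell (Hnrnpll), against 2.11% of all genes tested higher and 2.52% lower. At the study's thresholds, 2 were higher (Hnrnpd and Hnrnpdl) and 1 was lower (Hnrnpll), against 4.37% and 5.2% of all genes tested. The count of lower genes was near that background. Hnrnpa1 and Hnrnpa3 were not called there because they changed by less than 1.2-fold. At an unadjusted p under 0.05 alone, 7 were higher and 2 lower, against 8.8% and 9.62% of all genes tested, so the count of lower genes was near the background. The median log2 fold change was 0.036, with 13 values above 0 and 7 below. In 10 hnRNP genes both Itgb6-siRNA libraries lay above both Scrambled libraries and in 4 both lay below, and over the SR genes these counts were 4 and 4, against 23.8% of all genes tested higher and 25.4% lower without overlap. Together 71.0% of the 31 members did not overlap, against 49.2% of all genes tested. Over the lists of other splicing genes below, this share ran from 39.3% (other regulators of alternative splicing) to 92.9% (nonsense-mediated decay factors). It was 66.7% for core spliceosome genes. The members' median level was 63.8 FPKM against 9.07 FPKM over all genes tested, and the part of level in this share was not tested.

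Hnrnpdl (chromosome 5, 100033577 to 100039664, minus strand), an RNA-binding relative of Hnrnpd, rose the most. It had 290 and 308 CPM in Scrambled and 385 and 390 CPM in Itgb6-siRNA, and the lowest Itgb6-siRNA library was well above the highest Scrambled one. The means were 299 ± 13.0 CPM and 387 ± 3.61 CPM (SD, n = 2 each), the log2 fold change was 0.37 (SE 0.05) and the adjusted p was 3.24e-05 by edgeR. Of its transcript's windows 1.43% were shared with another gene, a pseudogene.

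Hnrnpd (chromosome 5, 99955935 to 99978938, minus strand), known as AUF1, binds AU-rich elements and governs the decay of mRNAs of cytokines and cell cycle genes. It had 57.0 and 56.8 CPM in Scrambled and 71.7 and 68.9 CPM in Itgb6-siRNA, so both Itgb6-siRNA libraries lay above both Scrambled libraries. The log2 fold change was 0.31 (SE 0.08) with an adjusted p of 0.0174 by edgeR. Hnrnpd and Hnrnpdl lie on the same strand, 54.6 kb apart, with 0 of the genes listed for these libraries between them. Annotated genes outside that list were not searched. Their FPKM ratio was 0.330 and 0.320 in Scrambled and 0.330 and 0.298 in Itgb6-siRNA, so they kept nearly the same proportion in all 4 libraries. The third member of the subgroup, Hnrnpab, had 1009 and 986 CPM and then 934 and 1020 CPM, and its groups overlap with a log2 fold change of -0.030 (95% interval from -0.13 to 0.068). The FPKM ratio of Hnrnpab to Hnrnpdl was accordingly 3.94 and 3.65 in Scrambled and 2.83 and 2.95 in Itgb6-siRNA.

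Of the A/B subgroup, Hnrnpa1 (chromosome 15, 103240432 to 103246692, plus strand) had 1329 and 1318 CPM in Scrambled and 1445 and 1598 CPM in Itgb6-siRNA. Its log2 fold change was 0.20 (SE 0.05) and its adjusted p 0.00867 by edgeR. Hnrnpa3 (chromosome 2, 75659261 to 75669407, plus strand) had 977 and 943 CPM and then 1016 and 1222 CPM, a log2 fold change of 0.22 (SE 0.06) with an adjusted p of 0.0171. In both genes replicate 3 of Itgb6-siRNA was the highest library, and in Hnrnpa3 replicate 1 was much closer to Scrambled than to replicate 3. Without Itgb6-siRNA replicate 3 the log2 fold change of Hnrnpa3 was 0.08, with an adjusted p of 0.315, which lies within a range from 2.66e-15 to 0.374 over the alternatives for that gene. Both genes have many processed copies in the genome: 25.4% of Hnrnpa1's windows and 27.5% of Hnrnpa3's occur in other annotated genes, mostly pseudogenes, so their counts are uncertain to the extent that the counting divided such reads.

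Hnrnpa2b1, which reads m6A marks and also guides RNA transport, had 562 and 535 CPM in Scrambled and 569 and 669 CPM in Itgb6-siRNA. It had a log2 fold change of 0.18 with an adjusted p of 0.0679. The value rests on the library used: without Itgb6-siRNA replicate 3 it was 0.056 and without Itgb6-siRNA replicate 1 it was 0.29, and the adjusted p was under 0.05 in 3 of 10 alternatives, ranging from 1.09e-07 to 0.636. The FPKM ratio of Hnrnpa1 to Hnrnpa2b1 ranged from 2.35 to 2.49 over the 4 libraries, with no order by group. Hnrnpa0, the intronless member, which binds AU-rich elements, had a log2 fold change of -0.15 and did not pass the adjusted test (0.185 by edgeR). The subgroup's estimates thus lay on both sides of 0, without a tested fall.

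Hnrnpll (chromosome 17, 80029487 to 80062334, minus strand), known for silencing variable exons of Ptprc in lymphocytes, had 46.6 and 39.4 CPM in Scrambled and 32.5 and 34.1 CPM in Itgb6-siRNA. Both Itgb6-siRNA libraries were lower, although the Scrambled libraries differed from each other by more than the Itgb6-siRNA libraries did. The means were 43.0 ± 5.11 CPM and 33.3 ± 1.16 CPM (SD, n = 2 each), the log2 fold change was -0.37 (SE 0.10) and the adjusted p was 0.0257 by edgeR. Hnrnpl, its abundant paralog, which binds CA-rich stretches, had a log2 fold change of 0.067 (95% interval from -0.038 to 0.17), and the FPKM ratio of Hnrnpl to Hnrnpll was 15.1 and 18.1 in Scrambled and 21.5 and 22.5 in Itgb6-siRNA. Srsf7, an SR gene 138 kb from Hnrnpll on the same strand, had a log2 fold change of 0.0055, and Galm, which lies between them, one of -0.17 with an adjusted p of 0.679.

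The other hnRNP genes did not pass the adjusted test. Hnrnph1, Hnrnph2, Hnrnph3 and Hnrnpf, which bind runs of G, had log2 fold changes of 0.068, 0.18, 0.029 and -0.044, with an adjusted p of 0.227 for Hnrnph2. Hnrnpk, which binds C-rich stretches in RNA and DNA, had 893 and 919 CPM in Scrambled and 929 and 1038 CPM in Itgb6-siRNA, with a log2 fold change of 0.12 and an adjusted p of 0.179; without Itgb6-siRNA replicate 3 it was 0.039 and without Itgb6-siRNA replicate 1 it was 0.19 (adjusted p 0.000156, range 0.000156 to 0.730). Hnrnpc, which binds runs of U, had a log2 fold change of 0.0064 with an interval from -0.096 to 0.11. Hnrnpu, a scaffold of nuclear RNA and chromatin, and its relatives Hnrnpul1 and Hnrnpul2 had 0.042, -0.015 and -0.046, and Hnrnpm and Hnrnpr had 0.020 and -0.072.

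**Figure D3:**
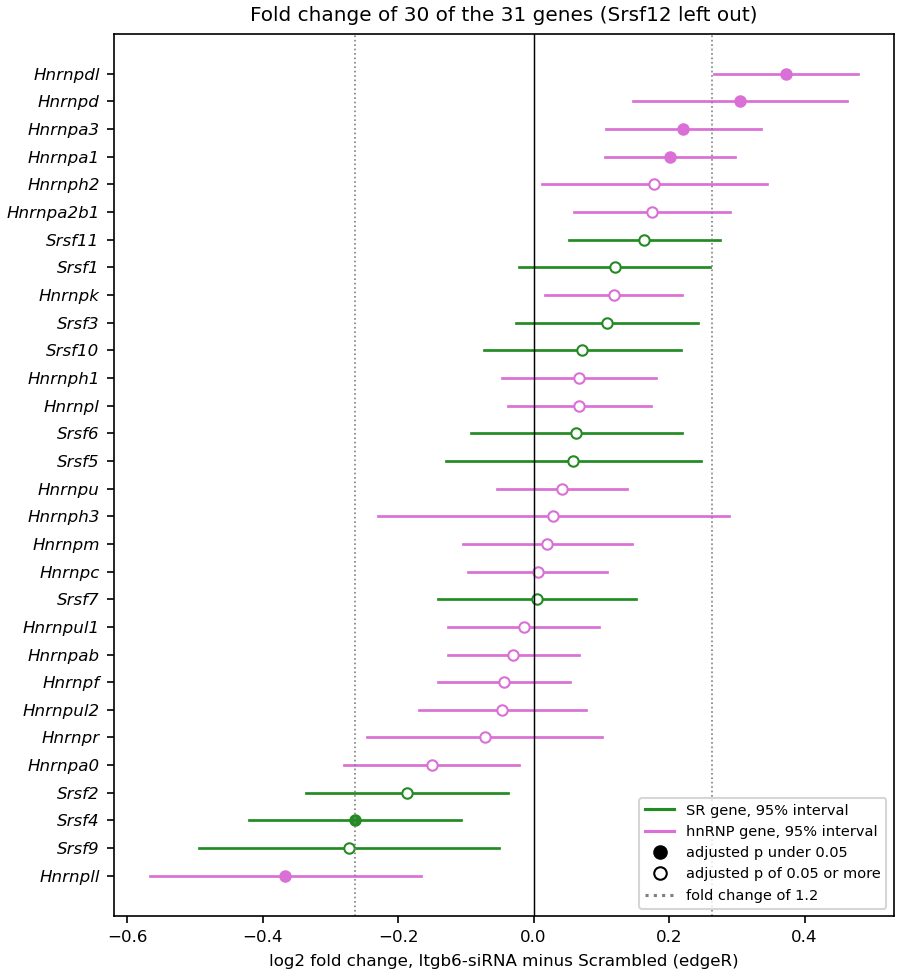
The log2 fold change of Itgb6-siRNA against Scrambled with its 95% interval (edgeR) for 30 genes, green for SR and purple for hnRNP genes; filled points have an adjusted p under 0.05 and dotted lines mark a 1.2-fold change. Srsf12 is left out since its interval runs from -1.39 to 1.03; filled points are Hnrnpdl, Hnrnpd, Hnrnpa3 and Hnrnpa1 above 0 and Srsf4 and Hnrnpll below.

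Over 10 alternative settings of the test (another tool, scaling or filter, a correction for GC content and length, or a library left out), the 6 genes with an adjusted p under 0.05 held to different degrees. Hnrnpdl stayed under 0.05 in 9 of the 10, with log2 fold changes from 0.33 to 0.42, and the exception was the fit without Scrambled replicate 2, in which 13 genes of the whole table passed. Hnrnpa1 and Hnrnpll stayed under 0.05 in 7, Hnrnpd in 6, Hnrnpa3 in 5 and Srsf4 in 4. The direction was the same in every alternative for these 6 genes, with log2 fold changes of Hnrnpll from -0.48 to -0.24, Hnrnpd from 0.22 to 0.34, Hnrnpa1 from 0.13 to 0.27 and Srsf4 from -0.35 to -0.18.

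Fold change moved with base composition in these libraries. Across the 11709 genes tested with an annotated transcript, the log2 fold change and the GC content of the longest transcript had a Spearman rho of -0.364, with medians of 0.12 in the 10% of genes lowest in GC and -0.12 in the 10% highest. The points share the 4 libraries, so this is a description. The members were low in GC, with medians of 42.8% over SR genes and 43.9% over hnRNP genes against 49.8% over all genes tested, and among the 31 members rho was -0.392. Genes within the middle range of the members' GC content (41.0% to 49.1%) had a median log2 fold change of 0.045, beside 0.059 for the SR genes and 0.036 for the hnRNP genes. When GC and length trends were removed from each library, the SR median was -0.034 and the hnRNP median 0.0052. Hnrnpdl then stood at 0.34 on the log2 scale (adjusted p 0.0004, within a range from 4.75e-10 to 0.0791 over its alternatives) and Hnrnpll one of -0.44 (adjusted p 0.0164, range 0.00933 to 0.552). Hnrnpa1 (0.15), Hnrnpa3 (0.13), Hnrnpd (0.22) and Srsf4 (-0.21) no longer had an adjusted p under 0.05.

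**Figure D4:**
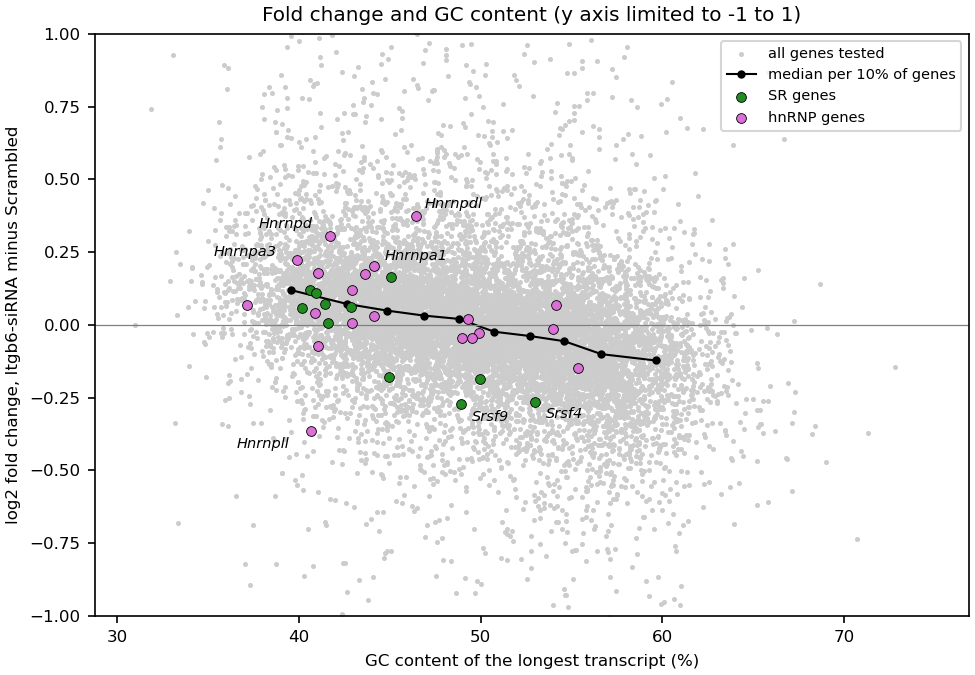
The log2 fold change of Itgb6-siRNA against Scrambled (y axis, shown from -1 to 1) against the GC content of the longest transcript (x axis, percent); grey points are all genes tested, black points and line the median per 10% of genes, green points SR and purple points hnRNP genes. The medians fall from 0.12 to -0.12, Hnrnpdl and Hnrnpd stand above the line and Hnrnpll far below it.

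The stretches before the start sites of 4 of the 6 genes with an adjusted p under 0.05 are shown, so that base composition and motifs can be compared (RefSeq, GRCm38.p6). Hnrnpdl and Hnrnpll are left out because they had no promoter entry or too short a stretch outside their own annotated exons. Of the genes shown, Hnrnpa1, Hnrnpa3 and Hnrnpd rose and Srsf4 fell. The sequences run 5′ to 3′ on the gene's strand, stop before the gene's first annotated exon, and carry in capitals each CCAAT (or ATTGG) and each GC box (GGGCGG or CCGCCC), searched on both strands with overlapping matches counted. Hnrnpa1 is chr15:103240147-103240396 (plus strand), Hnrnpa3 is chr2:75659009-75659258 (plus strand), Hnrnpd is chr5:99978939-99979188 (minus strand) and Srsf4 is chr4:131873387-131873616 (plus strand).
Hnrnpa1: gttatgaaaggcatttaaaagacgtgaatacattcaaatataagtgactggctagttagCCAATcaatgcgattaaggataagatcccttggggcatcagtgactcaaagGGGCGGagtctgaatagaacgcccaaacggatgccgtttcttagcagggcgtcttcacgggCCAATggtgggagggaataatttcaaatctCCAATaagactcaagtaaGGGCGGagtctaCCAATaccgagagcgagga
Hnrnpa3: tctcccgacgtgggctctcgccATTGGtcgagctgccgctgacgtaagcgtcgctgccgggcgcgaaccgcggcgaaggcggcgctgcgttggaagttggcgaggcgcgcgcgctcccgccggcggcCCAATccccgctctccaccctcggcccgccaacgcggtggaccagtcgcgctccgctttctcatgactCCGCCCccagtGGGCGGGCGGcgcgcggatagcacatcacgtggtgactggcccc
Hnrnpd: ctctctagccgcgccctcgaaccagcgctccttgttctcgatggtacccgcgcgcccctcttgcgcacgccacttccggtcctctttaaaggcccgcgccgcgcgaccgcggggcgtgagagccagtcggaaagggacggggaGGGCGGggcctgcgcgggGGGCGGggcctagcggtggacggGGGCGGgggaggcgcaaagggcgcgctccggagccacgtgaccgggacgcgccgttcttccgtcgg
Srsf4: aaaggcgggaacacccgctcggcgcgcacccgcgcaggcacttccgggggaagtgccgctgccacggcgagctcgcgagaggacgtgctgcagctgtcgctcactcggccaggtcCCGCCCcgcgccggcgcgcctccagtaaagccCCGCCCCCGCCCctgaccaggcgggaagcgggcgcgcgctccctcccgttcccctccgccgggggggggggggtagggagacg

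The stretch of Hnrnpa1 held 4 CCAAT matches and 2 GC boxes, that of Hnrnpa3 2 and 3, and those of Hnrnpd and Srsf4 held 0 and 3 each. The GC content of the stretch was 46% for Hnrnpa1, 73.2% for Hnrnpa3, 74.4% for Hnrnpd and 77.4% for Srsf4. Of the 29 members with an entry, taking the 250 bases before the start, CCAAT occurred in 12 of 18 hnRNP genes (66.7%) and 3 of 11 SR genes (27.3%), against 37.4% of 9329 genes tested. The GC box occurred in 13 hnRNP genes (72.2%) and 10 SR genes (90.9%), against 61.8%. The letters CCGGAAG, part of many ETS factor motifs, occurred in 4 SR genes (36.4%) and 2 hnRNP genes (11.1%), against 14.6%. TATAAA occurred in 2 SR genes (18.2%) and 1 hnRNP gene (5.56%), against 5.95%. TGACGTCA, the full cAMP response element, was found in 0 member windows and occurred in 2.83% of genes tested. A match in these windows is a description and not a sign of binding.

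Gene models of these families often hold transcripts annotated for nonsense-mediated decay or with a retained intron. Transcripts marked for nonsense-mediated decay were annotated for 9 of 11 SR genes (81.8%) and 10 of 20 hnRNP genes (50%), against 29.4% of all genes tested. Transcripts with a retained intron were annotated for 72.7% of SR and 70% of hnRNP genes, against 59.8%. Of the genes with an adjusted p under 0.05, Srsf4, Hnrnpa1, Hnrnpd, Hnrnpdl and Hnrnpll have decay transcripts and Hnrnpa3 has none annotated. The members also had more annotated transcripts, with medians of 7 for SR and 8 for hnRNP genes against 5 for all genes tested. A gene with more transcripts has more chances to hold a given form, and the part of this in the shares was not tested. These are properties of the gene models and not of the libraries, and whether the forms limit the members' levels was not tested.

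A rough view of isoform use came from the length at which each gene's deposited count and FPKM agree, given the library's total. For Hnrnpa0 and Hnrnpul2 this length was 2678 and 5118 bases in every library, equal to their longest annotated transcripts. The other 29 members varied between libraries, and in 10 of them the groups did not overlap, beside 34.8% of the 8461 genes tested that varied, so the members were near the background. Srsf3 had 2191 and 2279 bases in Scrambled and 2333 and 2349 bases in Itgb6-siRNA. Hnrnpk had 1688 and 1662 bases and then 1749 and 1742 bases, and Hnrnpr 2600 and 2764 bases and then 2545 and 2539 bases. In size, the shifts of Srsf3, Hnrnpk and Hnrnpr lay at percentiles 70.4, 67.5 and 73.4 of the genes that varied. Which exons were used was not tested. Of the genes that passed the test of level, Hnrnpd, Hnrnpdl and Hnrnpll overlapped between groups in this length. Hnrnpa1, Hnrnpa3 and Srsf4 did not overlap, and their shifts lay at percentiles 38.8, 55.7 and 30.3 of the genes that varied.

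Sequence shared with other genes limits some members. More than 20% of windows, by annotation, were shared in Hnrnpf (56.3%), Srsf4 (44.9%), Srsf2 (30.6%, with Mettl23 and Mfsd11), Hnrnpm (27.9%, with March2), Hnrnpa3, Hnrnpk (26.1%), Hnrnpa1 and Hnrnpab (23.2%, with Phykpl). Srsf9, Srsf11, Srsf7 and Hnrnpll shared none. In bulk RNA a difference in these levels cannot be divided between the number of cells that express a gene and the RNA per cell.

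Beyond the 2 families, other splicing genes were taken as lists. Of the 10 kinases and adaptors of SR proteins tested, 0 passed an adjusted p under 0.05 by edgeR or by DESeq2. At an unadjusted p under 0.05 by edgeR, 3 were higher (2 by DESeq2) and 0 lower, against 8.8% and 9.62% of all genes tested. Clk1, which phosphorylates SR tails in the nucleus, had 58.2 and 61.4 CPM in Scrambled and 67.2 and 72.8 CPM in Itgb6-siRNA, with a log2 fold change of 0.23 and an adjusted p of 0.0921. Prpf4b and Srpk2 had 0.23 and 0.22, and the list's median was 0.097, beside 0.00017 over all genes.

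Of 27 SR-related proteins, 2 rose and 2 fell at an adjusted p under 0.05, against 2.11% and 2.52% of all genes tested. The list median was 0.024. Son, a scaffold of nuclear speckles, had 95.6 and 97.6 CPM in Scrambled and 125 and 121 CPM in Itgb6-siRNA, which gave 0.35 on the log2 scale (adjusted p 0.00139 by edgeR). Luc7l3, a relative of a U1 snRNP component, rose by 0.27 on the log2 scale (adjusted p 0.0136), but by 0.15 without Scrambled replicate 2, and its adjusted p ranged from 8.98e-05 to 0.608 over the alternatives, with 0.351 by DESeq2. Scaf1 and Rnps1, the latter a splicing activator that joins the exon junction complex, fell by 0.27 and 0.18 (adjusted p 0.0342 and 0.0455). By DESeq2 the list had 1 gene higher and 1 lower at an adjusted p under 0.05. Of 17 hnRNP proteins tested under other gene names, 1 rose at an adjusted p under 0.05, against 2.11% of all genes tested. It was Taf15, a relative of Ewsr1, with 158 and 154 CPM and then 179 and 216 CPM. The log2 fold change of Taf15 was 0.34 (adjusted p 0.00207 by edgeR), or 0.20 without Itgb6-siRNA replicate 3.

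Of 28 other regulators of alternative splicing tested, 1 rose at an adjusted p under 0.05, against 2.11% of all genes tested. It was Matr3, a nuclear matrix protein, which rose by 0.18 (adjusted p 0.0419 by edgeR). At that threshold 0 fell by edgeR or DESeq2. At an unadjusted p under 0.05, 2 were lower by each tool, against 9.62% of all genes tested by edgeR. Of 60 core spliceosome genes, 0 passed an adjusted p under 0.05 by edgeR, 11 were lower and 5 higher at an unadjusted p under 0.05 (9.62% and 8.8% over all genes tested, the count of higher genes being near that background), and the median was 0.0033. DESeq2 gave 1 of them, Prpf8, the central scaffold of the spliceosome's active site, at a log2 fold change of -0.15 and an adjusted p of 0.0464 (0.0590 by edgeR); it is named here after its values were seen. Of 14 nonsense-mediated decay factors tested, 2 fell and 1 rose at an adjusted p under 0.05 by edgeR, against 2.52% and 2.11% of all genes tested. Smg6, the endonuclease of the pathway, had 68.1 and 58.4 CPM in Scrambled and 47.9 and 48.2 CPM in Itgb6-siRNA, a log2 fold change of -0.40 and an adjusted p of 0.00433 by edgeR. Upf1, the central helicase, had 99.7 and 90.1 CPM and then 77.3 and 72.4 CPM, which gave -0.34 on the log2 scale (adjusted p 0.00477). With GC and length trends removed, Son, Taf15 and Smg6 kept an adjusted p under 0.05 and Luc7l3, Rnps1, Scaf1, Matr3 and Upf1 did not. Over the 10 alternatives an adjusted p under 0.05 was reached in 9 for Son and Smg6, 8 for Upf1, 7 for Luc7l3 and Taf15, and 5 for Scaf1, Rnps1 and Matr3. Exons of Son, Upf1, Smg6 and Matr3 overlap those of other annotated genes.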

How the data were processed

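Paired reads of polyadenylated RNA, made without strand, gave the 2 kinds of value used. The authors deposited estimated counts per gene, with no normalization and with 1447 to 1500 values per library that are not whole, and the authors also deposited FPKM values. The aligner, counting tool and genome build are not given in the sources used here. The study's methods speak of choosing samples by clustering, so other libraries may exist that were not analysed here, and they name edgeR with cutoffs of 0.05 (p) and 1.2 (fold change).

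Counts were rounded, kept by filterByExpr (minimum 10, total 15), scaled by TMM and compared by quasi-likelihood in edgeR 4.0.16 (R 4.3.3), with Benjamini-Hochberg adjustment over 11727 genes. CPM were computed from these counts, and FPKM were used for levels between genes. Alternatives included DESeq2 1.42.0. Intervals are at the 95% level. The common biological coefficient of variation was 0.0551. Tables were joined in Python 3.11.15.

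Annotation was GENCODE vM21 (GRCm38), in which 99.6% of genes listed and all 31 members were found by identifier. Windows of 100 bases of the longest transcript were matched exactly to other genes' exons. Genes were described one by one if called, among the 3 highest by FPKM or the extremes of a family. Members and lists were chosen with earlier results of these data known. Some genes of the lists are not reported here.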

Additional observations from a re-analysis of the deposited data

How the results depend on the processing

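No paired analysis was possible because the groups share 1 replicate number. The number of all genes that passed also moved with the setting. At an adjusted p under 0.05 it was 542 in the main fit, 302 by DESeq2 and 221 with GC content and length trends removed. At the study's thresholds, 610 genes were lower and 512 higher in the main fit. These were 383 and 320 by DESeq2, and 424 and 418 with the trends removed. The part of this in the members' counts below was not tested. The count of SR genes lower at the study's thresholds, 2, was 0 by DESeq2 and with a fold change over 1.5, and 1 with RLE factors, with at least 10 counts in every library, with GC content and length trends removed and with an adjusted p. Without 1 library at a time it ranged from 0 to 3, being 0 without Scrambled replicate 2 or Itgb6-siRNA replicate 3 and 3 without Itgb6-siRNA replicate 1. The hnRNP count lower, 1, was 0 at a fold change over 1.5 and 0 without Scrambled replicate 2, its range without 1 library being 0 to 1. The hnRNP count higher, 2, was 1 once GC and length trends were taken out, 0 at a fold change over 1.5, and 2 to 6 without 1 library, the 6 being without Itgb6-siRNA replicate 1. At an adjusted p under 0.05, the SR count of 1 was 0 by DESeq2, with RLE factors and with the trends removed, and 0 to 2 without 1 library, the 2 being without Itgb6-siRNA replicate 1. The hnRNP count of 5 was 3 by DESeq2, 2 with the trends removed and 0 to 5 without 1 library, the 0 being without Scrambled replicate 2. The SR median log2 fold change of 0.059 was -0.034 with the trends removed and -0.00055 to 0.075 without 1 library. The hnRNP median of 0.036 was 0.0052 with the trends removed and 0.032 to 0.065 without 1 library. The summed FPKM ratio of 9.74 was 8.86 in CPM and 3.33 by medians. Of Srsf12's 9 to 13 counts nothing finer can be read.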
